A study of Danio rerio with 30 samples.

Results

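The comparison described here sets adult zebrafish (Danio rerio) retinas that were poked with a needle and exposed to ZVAD-fmk against retinas of fish that were neither injured nor treated. Its members were chosen by library name: 3 poked ZVAD-fmk libraries and 3 untreated uninjured libraries, 6 of the 30 libraries in the study. All 6 came from wild-type fish of 1 experimental batch, the needle poke experiment of 12 libraries. Each of the 6 also held counts of an EGFP reporter transgene, at 431 to 1149 CPM, whose promoter the labels do not give. For the ZVAD-fmk group the needle was passed through the back of the eye, the fish were immersed in water that contained ZVAD-fmk, and the retinas were taken 2 days after the injury. Fish of the uninjured group received neither needle nor drug. The same experiment holds 3 poked libraries from fish immersed in DMSO and 3 from fish immersed in PLX3397, which are given beside the results only where they bear on them. Every fish was dark adapted overnight before the eyes were removed. The titles carry the letters MG, yet the protocol describes whole retinas triturated in TRIzol and names no sorting step, so the libraries are treated as whole retina. The labels name no dose, do not say whether ZVAD-fmk was dissolved in DMSO, and do not say whether the libraries of a group came from separate fish. The p-values below therefore measure only the spread between these libraries, which may be technical. No uninjured group received ZVAD-fmk and no poked group went without immersion, so in this comparison the effects of injury, drug and immersion cannot be told apart.

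ZVAD-fmk is a cell-permeable peptide that binds the catalytic cysteine of caspases irreversibly and blocks most members of the family, which are the proteases that carry out apoptosis. In the zebrafish retina, Müller glia, the radial glia that span all retinal layers, respond to the death of neurons by changing their expression programme, re-entering the cell cycle and producing progenitors that replace lost neurons. Signals known to act on these glia after injury include cytokines of the interleukin 6 family and leptin, which work through Stat3, and the growth factor HB-EGF, while the factors Ascl1a and Lin28a are required in them for reprogramming. Microglia, the resident macrophages of the retina, also respond to injury. Caspases act after translation, so the RNA levels below do not measure whether they were inhibited.

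Total counts were 61222563, 54816393 and 56735328 in the ZVAD-fmk libraries 1 to 3, and 38933511, 68463160 and 39678544 in the uninjured libraries 1 to 3. Levels are given in CPM, counts scaled by each library's TMM-adjusted size, which allow a gene to be compared between libraries but not with another gene, since they are not divided by transcript length. The ZVAD-fmk libraries correlated with each other at 0.979 to 0.983 across genes on the log2 scale, and the uninjured libraries at 0.944 to 0.963. Uninjured library 2 stood apart from the other uninjured libraries: on the third principal component, which held 9.37% of the variance, it lay at 95.6, against -38.7 and -35.5. It was also higher in transcripts of blood, myelin and pigment epithelium, with 48.6 CPM of the haemoglobin gene hbaa1, against 8.49 and 13.3 CPM in the other uninjured libraries. ZVAD-fmk library 1 was higher than its partners in heat shock genes. These libraries, DMSO library 3 and PLX3397 library 2 are the 4 libraries that stood apart, and counts without them are given beside the lists they bear on. Defining markers of Müller glia, rods, cones and bipolar cells were present in every library. Those of T cells (lck, at most 0.0826 CPM), B cells (cd79a, at most 0.114 CPM) and lens (CRYAA, at most 0.145 CPM) were at or near 0 in all 6 libraries. Not every gene of the lymphocyte list, described below, or of the lens list was near 0. CRYBA4 averaged 3.08 CPM in ZVAD-fmk retinas and 21.2 CPM in uninjured retinas, and lim2.2 averaged 13.2 and 1.25 CPM.

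Of 21334 genes tested, 4675 were higher and 3960 were lower in ZVAD-fmk retinas than in uninjured retinas at an adjusted p under 0.05 (edgeR's quasi-likelihood test with Benjamini-Hochberg adjustment over all genes tested). These are 21.9% of the tested genes called higher and 18.6% called lower, and each list below is read against those shares. The median log2 fold change over all genes was 0.02. Among the called genes, 2555 were more than 2-fold higher and 1815 more than 2-fold lower, while 552 were more than 8-fold higher and 217 more than 8-fold lower. Leaving out each of the 6 libraries in turn, 3559 genes were called higher and 2611 lower every time. Without the 4 libraries that stood apart, 5674 genes were called higher and 4796 lower, and list counts from that fit are to be read against these. The plot of list members shows how 25 gene groups were placed: DNA replication, complement, ribosomal protein and proteasome genes lay mostly to the right, and rod, cone, bipolar and sterol synthesis genes mostly to the left. Because RNA was taken from whole retina, fewer cells of a type and less RNA per cell cannot be told apart.

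**Figure D1:**
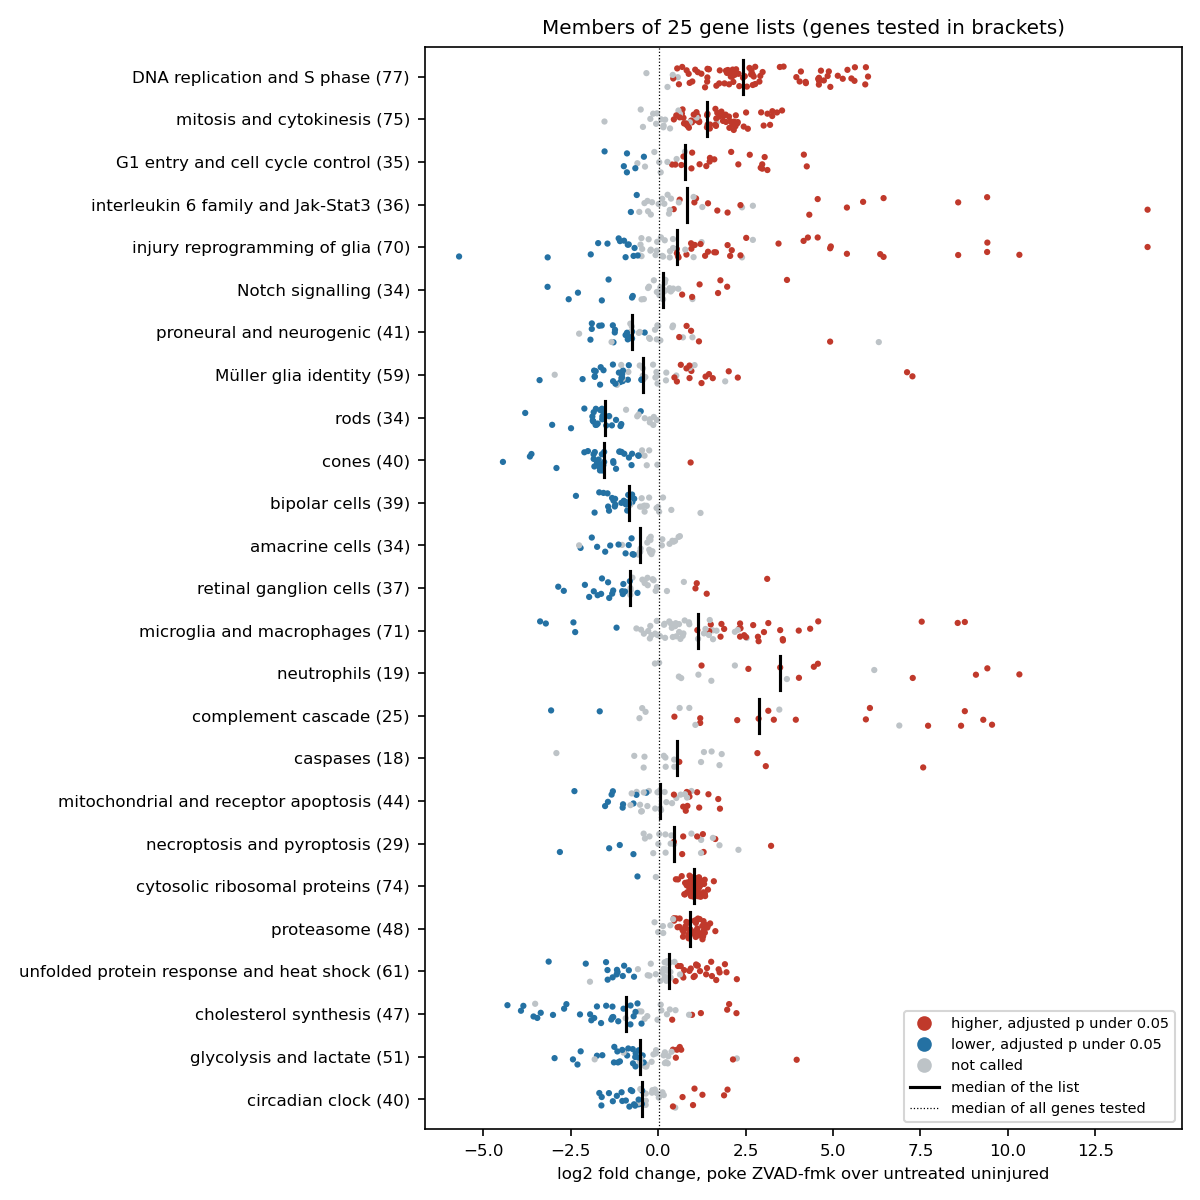
Each point is 1 gene of a list, placed by its log2 fold change between poked ZVAD-fmk and untreated uninjured retinas (3 libraries each), coloured by whether it was called higher or lower at an edgeR adjusted p under 0.05, with the median of the list as a black bar and the median of all 21334 genes (0.02) as a dotted line. The DNA replication list has its median at 2.43 and the cone list at -1.54.

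The 10 largest rises among genes with a symbol and at least 5 CPM in ZVAD-fmk retinas that were called without each of the 6 libraries in turn were of genes with a mean under 1 CPM in uninjured retinas. The interleukin 6 family ligand clcf1 had 149, 168 and 174 CPM in ZVAD-fmk retinas, against 0.0271, 0 and 0 CPM in uninjured retinas, where a single count was found (edgeR adjusted p = 2.9e-09). The gelatinase MMP9 had 1042, 998 and 991 CPM in ZVAD-fmk retinas and 0.868, 0.708 and 0.787 CPM in uninjured retinas, a log2 fold change of 10.33 ± 0.33 (SE; edgeR adjusted p = 1.1e-09). For neither gene did the groups come near each other. The leptin gene lepb had 107, 96.7 and 95.2 CPM in ZVAD-fmk retinas, against 0.109, 0.272 and 0 CPM in uninjured retinas (log2 fold change 9.41 ± 0.60, edgeR adjusted p = 1.9e-07). The Wnt inhibitor dkk1a followed the same pattern, with 43.3, 32.9 and 35.0 CPM in ZVAD-fmk retinas and 0.136, 0 and 0 CPM in uninjured retinas (log2 fold change 9.81, edgeR adjusted p = 2e-07). Starmaker, stm, known from the zebrafish ear as an otolith matrix protein, averaged 128 ± 9.50 CPM in ZVAD-fmk retinas and 0.109 ± 0.109 CPM in uninjured retinas (SD, n = 3 each). An integrin alpha subunit gene, ITGA2, had 17.6, 18 and 17.2 CPM in ZVAD-fmk retinas and 2 counts in all uninjured libraries together. Of the 10 largest rises, 4 had no count in any uninjured library: cart4, which encodes a neuropeptide precursor, was at least 1005-fold higher in ZVAD-fmk retinas, itga2.3 at least 276-fold, si:dkey-7i4.24 at least 613-fold and si:dkey-119g10.3 at least 220-fold. These bounds set the uninjured group at 3 counts over its 3 libraries, which covers counting error only.

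Among the 10 largest falls, taken likewise with at least 5 CPM in uninjured retinas, 7 genes, most with a clone-based symbol, had much lower counts in uninjured library 2 than in uninjured libraries 1 and 3, so their baseline rests largely on libraries 1 and 3. The first of them, si:dkey-193d10.9, had no count in ZVAD-fmk retinas and 9.85, 0.926 and 11.6 CPM in uninjured retinas, at least a 450-fold difference. Likewise nox1, which encodes an NADPH oxidase, had 0.380, 0.353 and 0.488 CPM in ZVAD-fmk retinas and 14.4, 1.98 and 12.4 CPM in uninjured retinas (log2 fold change -4.55, edgeR adjusted p = 0.00013). The others were si:ch211-1k7.1 at -6.97, si:ch73-359m17.7 at -6.90, si:ch211-216b21.1 at -6.21, si:dkey-222f8.6 at -5.80 and tnks1bp1 at -4.80 on the log2 scale. In si:ch211-216b21.1 the groups overlapped, since uninjured library 2 had only 0.0182 CPM. In the other 3 of the 10, uninjured library 2 was not below libraries 1 and 3 to that extent: these were the red cone opsin opn1lw2 at -4.44, the sterol enzyme SQLE (ENSDARG00000079946) at -4.31 and si:ch73-368j24.8 at -4.12, with 0.661, 1.18 and 0.830 CPM of the last in ZVAD-fmk retinas and 16.3, 13.9 and 16.3 CPM in uninjured retinas.

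Ligands and receptors of the interleukin 6 family and their Jak-Stat3 pathway were called higher in ZVAD-fmk retinas more often than genes in general. Of 36 tested members, 16 were called higher, 2 lower and the rest were not called, with a median log2 fold change of 0.82, against 0.02 for all genes. The ligands clcf1 and lepb rose most. On the receptor side, il6st, the shared signalling subunit gp130, had 294, 265 and 256 CPM in ZVAD-fmk retinas and 49.6, 61.2 and 48.4 CPM in uninjured retinas (log2 fold change 2.35, edgeR adjusted p = 9.7e-07), and lifrb, a leukaemia inhibitory factor receptor, averaged 36.9 ± 6.37 CPM in ZVAD-fmk retinas and 0.637 ± 0.236 CPM in uninjured retinas (SD, n = 3 each). These 2 receptors were picked after their values were seen. The transcription factor STAT3 had 189, 169 and 162 CPM in ZVAD-fmk retinas, against 39.5, 50.7 and 40.8 CPM in uninjured retinas (log2 fold change 1.99 ± 0.14, edgeR adjusted p = 3.5e-07). The 2 members that fell were CISH, a Stat-induced inhibitor of cytokine signalling, with a log2 fold change of -0.78, and the ciliary neurotrophic factor receptor cntfr, with -0.61.

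Several of these signals also differed between poked retinas given ZVAD-fmk and poked retinas given DMSO, which is the direct test of a difference in the response, since both groups share the uninjured libraries as baseline. Over all genes, 9.70% were called higher and 8.96% lower in ZVAD-fmk retinas than in DMSO retinas. In the interleukin 6 list, 10 of 36 genes were called higher and 1 lower, with a median log2 difference of 0.30. Over uninjured retinas the median of this list was 0.82 in ZVAD-fmk retinas, 0.34 in DMSO retinas and 0.88 in PLX3397 retinas. Among them clcf1 averaged 164 ± 12.7 CPM in ZVAD-fmk retinas and 58.9 ± 2.63 CPM in DMSO retinas (SD, n = 3 each; log2 difference 1.48, edgeR adjusted p = 0.00085). For il6st the log2 difference was 1.19 (edgeR adjusted p = 0.0007), with 272 ± 19.6 CPM in ZVAD-fmk retinas and 119 ± 3.75 CPM in DMSO retinas. STAT3 was also higher, by 0.57 on the log2 scale (edgeR adjusted p = 0.0094), a call that was lost without ZVAD-fmk library 1 (adjusted p = 0.054). By contrast MMP9 (781 ± 151 CPM in DMSO retinas) and lepb (79.3 ± 33.2 CPM in DMSO retinas) did not pass the test between the 2 poked groups, with log2 differences of 0.37 ± 0.21 and 0.33 ± 0.36 (SE).

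Genes tied to the reprogramming of Müller glia were higher in ZVAD-fmk retinas more often than genes in general: 32 of 70 tested members were called higher and 14 lower, with a median of 0.55. The proneural factor ascl1a had 421, 309 and 323 CPM in ZVAD-fmk retinas, against 4.91, 21.1 and 8.60 CPM in uninjured retinas (log2 fold change 4.92 ± 0.56, edgeR adjusted p = 1.8e-05). The RNA-binding protein gene LIN28A (ENSDARG00000016999), which acts on let-7 microRNAs, had 147, 164 and 175 CPM in ZVAD-fmk retinas and 8.84, 0.744 and 6.54 CPM in uninjured retinas (log2 fold change 4.94 ± 0.63, edgeR adjusted p = 4.4e-05). In both genes every ZVAD-fmk library lay far above every uninjured library. The HB-EGF gene hbegfa had 222, 215 and 227 CPM in ZVAD-fmk retinas and 14.8, 26.3 and 19.9 CPM in uninjured retinas (log2 fold change 3.44, edgeR adjusted p = 2e-06). The progenitor factor SOX2, which Müller glia express at rest, had 443, 553 and 525 CPM in ZVAD-fmk retinas and 232, 315 and 239 CPM in uninjured retinas, a log2 fold change of 0.95 (edgeR adjusted p = 0.00039). The pluripotency genes nanog and pou5f3 were the largest falls of the list, at -5.69 and -3.16. The level of nanog was uneven between uninjured libraries: it had 9 counts in ZVAD-fmk libraries and 301 in uninjured libraries, with 0, 0 and 0.147 CPM in ZVAD-fmk retinas and 4.21, 0.363 and 3.42 CPM in uninjured retinas. The nanog call was also lost with DESeq2 (adjusted p = 0.12). Both calls were lost without ZVAD-fmk library 1 or 2 and without uninjured library 1 or 3 (adjusted p 0.058 to 0.16), and that of pou5f3 also without ZVAD-fmk library 3 (adjusted p = 0.063). The number of members called lower was 9 without ZVAD-fmk library 2.

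Against DMSO retinas, 11 of the 70 reprogramming genes were called higher, 9 lower and 50 were not called, with a median log2 difference of 0.11. The level of ascl1a in ZVAD-fmk retinas, 351 ± 60.8 CPM, was set beside 347 ± 63.7 CPM in DMSO retinas (SD, n = 3 each), a log2 difference of 0.02 ± 0.47 (SE) that changed sign when single libraries were left out. For LIN28A (ENSDARG00000016999) the log2 difference was 0.33 ± 0.53 and did not pass the test. For hbegfa it was 1.00 (edgeR adjusted p = 0.023) and for SOX2 0.65 (edgeR adjusted p = 0.014), but the hbegfa call was lost without any 1 of the 3 ZVAD-fmk libraries or DMSO library 1 or 2 (adjusted p 0.058 to 0.089), and the SOX2 call without ZVAD-fmk library 2 or 3 (adjusted p 0.065 and 0.053). SOX2 averaged 507 ± 57.3 CPM in ZVAD-fmk retinas, 324 ± 5.61 CPM in DMSO retinas and 460 ± 74.1 CPM in PLX3397 retinas.

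**Figure D2:**
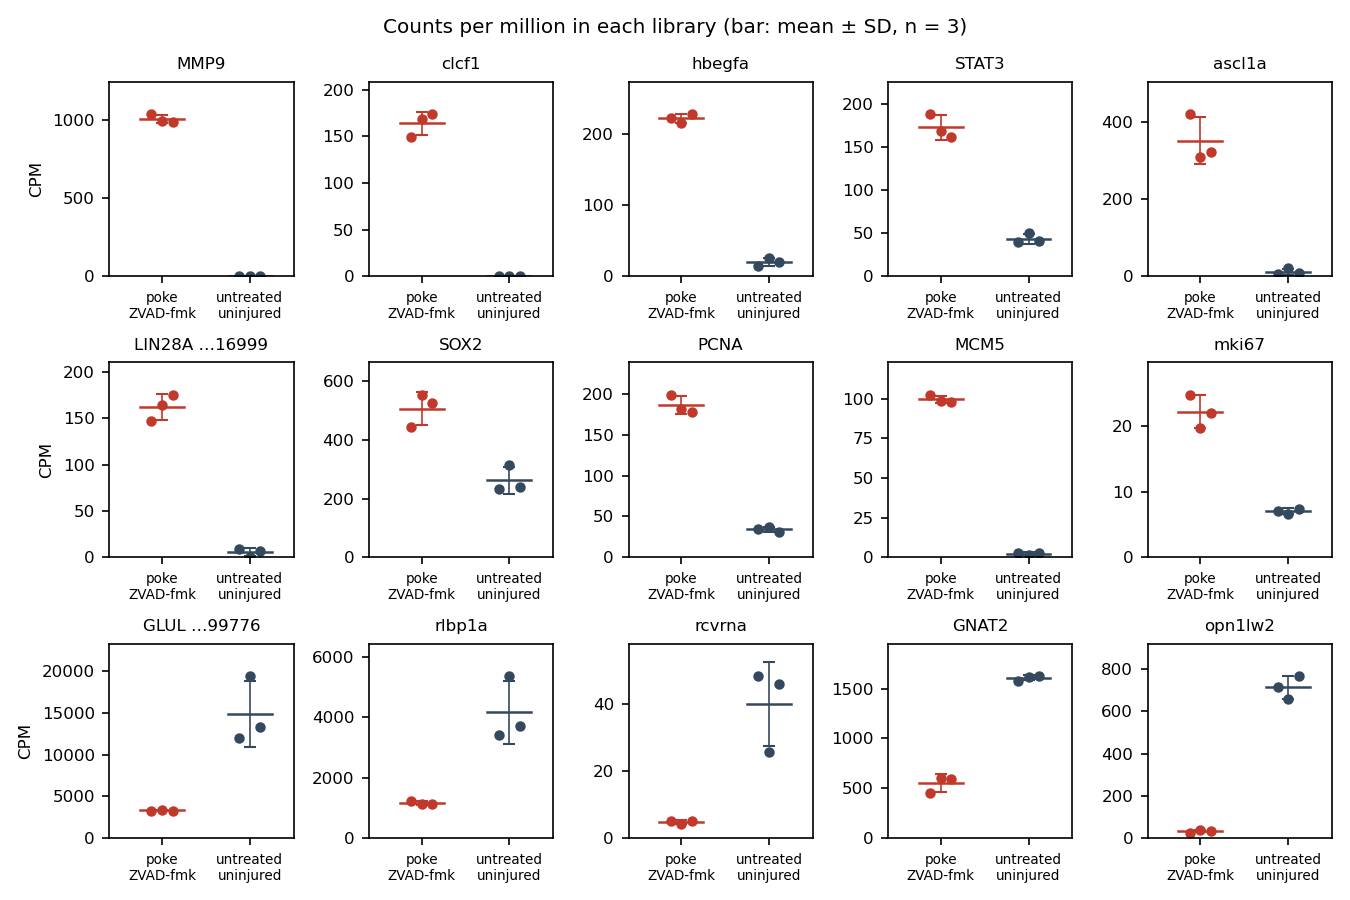
CPM of 15 genes in each poked ZVAD-fmk library (left) and each untreated uninjured library (right), on linear axes from 0, with the mean as a line and the SD as a bar (n = 3). The groups do not overlap in any panel; the signal, reprogramming and replication genes and mki67 are higher in ZVAD-fmk retinas, and the glial and photoreceptor genes of the last 5 panels are lower.

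Genes of DNA replication rose almost as a whole, and most genes of mitosis rose with a smaller median. Of 77 tested replication and S phase genes, 73 were called higher and none lower in ZVAD-fmk retinas, with a median log2 fold change of 2.43. The replicative helicase subunit MCM2 had 113, 115 and 112 CPM in ZVAD-fmk retinas and 1.71, 2.52 and 0.950 CPM in uninjured retinas (log2 fold change 6.00 ± 0.31, edgeR adjusted p = 4.5e-08). Its partner MCM5 had 102, 98.2 and 98.0 CPM in ZVAD-fmk retinas, against 2.47, 1.60 and 3.01 CPM in uninjured retinas (log2 fold change 5.41 ± 0.26, edgeR adjusted p = 2.6e-08). Taken up after their values were seen, the other helicase subunits rose too, by 5.53 for MCM3, 5.92 for MCM4, 4.58 for MCM6 (ENSDARG00000057683) and 2.92 for MCM7 on the log2 scale. MCM10, which helps to activate the helicase, rose by 5.94, with 1646 counts in ZVAD-fmk libraries and 18 in uninjured libraries. The sliding clamp of DNA polymerase, PCNA, had 199, 182 and 177 CPM in ZVAD-fmk retinas and 35.0, 37.4 and 31.2 CPM in uninjured retinas (log2 fold change 2.43, edgeR adjusted p = 1.2e-06). Of 75 mitosis and cytokinesis genes, 58 were called higher and none lower, with a median of 1.40. The condensin subunit NCAPH rose most of them, by 3.54, followed by the spindle protein HAUS1 with 3.40. The proliferation marker mki67 had 24.7, 19.7 and 22.0 CPM in ZVAD-fmk retinas, against 7.08, 6.61 and 7.41 CPM in uninjured retinas (log2 fold change 1.66 ± 0.14, edgeR adjusted p = 1.3e-06).

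Set beside DMSO retinas, none of the helicase genes named here passed the test, while most mitosis genes were lower. MCM2 averaged 113 ± 1.22 CPM in ZVAD-fmk retinas and 112 ± 15.6 CPM in DMSO retinas (SD, n = 3 each), a log2 difference of 0.01 ± 0.24 (SE), and MCM5 averaged 99.5 ± 2.37 CPM in ZVAD-fmk retinas and 118 ± 12 CPM in DMSO retinas, a difference of -0.25 ± 0.21. For MCM3, MCM4, MCM6 (ENSDARG00000057683) and MCM7 the differences were -0.08, 0.06, -0.21 and -0.57, and none passed the test. Intervals of this width do not show that the levels were equal. The mitotic kinase CDK1, chosen after its values were seen, averaged 3.95 ± 0.849 CPM in ZVAD-fmk retinas, 66.4 ± 5.50 CPM in DMSO retinas and 1.09 ± 0.222 CPM in uninjured retinas, so that it was higher than in uninjured retinas (log2 fold change 1.85, edgeR adjusted p = 2.9e-05) and lower than in DMSO retinas (log2 difference -4.07, edgeR adjusted p = 1.7e-07). Cyclin B1 (CCNB1), topoisomerase TOP2A and the kinase plk1, likewise chosen afterwards, differed from DMSO retinas by -4.05, -4.05 and -3.81. For mki67 the difference was -3.30 ± 0.14 (edgeR adjusted p = 3.3e-08), with 218 ± 18.2 CPM in DMSO retinas, and for PCNA it was -1.22 (edgeR adjusted p = 0.00085), with 434 ± 78.7 CPM in DMSO retinas. Low levels were also found in poked PLX3397 retinas, with 3.32 ± 0.798 CPM of CDK1, 26.2 ± 3.92 CPM of mki67 and 175 ± 51.0 CPM of PCNA. Over the lists, 71 of 75 mitosis genes and 48 of 77 replication genes were called lower than in DMSO retinas and none higher, with medians of -2.95 and -0.81. Over uninjured retinas, the median log2 fold change of the mitosis list was 1.40 in ZVAD-fmk retinas, 4.68 in DMSO retinas and 1.46 in PLX3397 retinas. That of the replication list was 2.43 in ZVAD-fmk retinas, 3.40 in DMSO retinas and 2.42 in PLX3397 retinas. CCNB1 was the weakest of the mitotic rises over uninjured retinas, at 0.74 (edgeR adjusted p = 0.009), and was not called when only the 6 libraries entered the fit (adjusted p = 0.087).

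**Figure D3:**
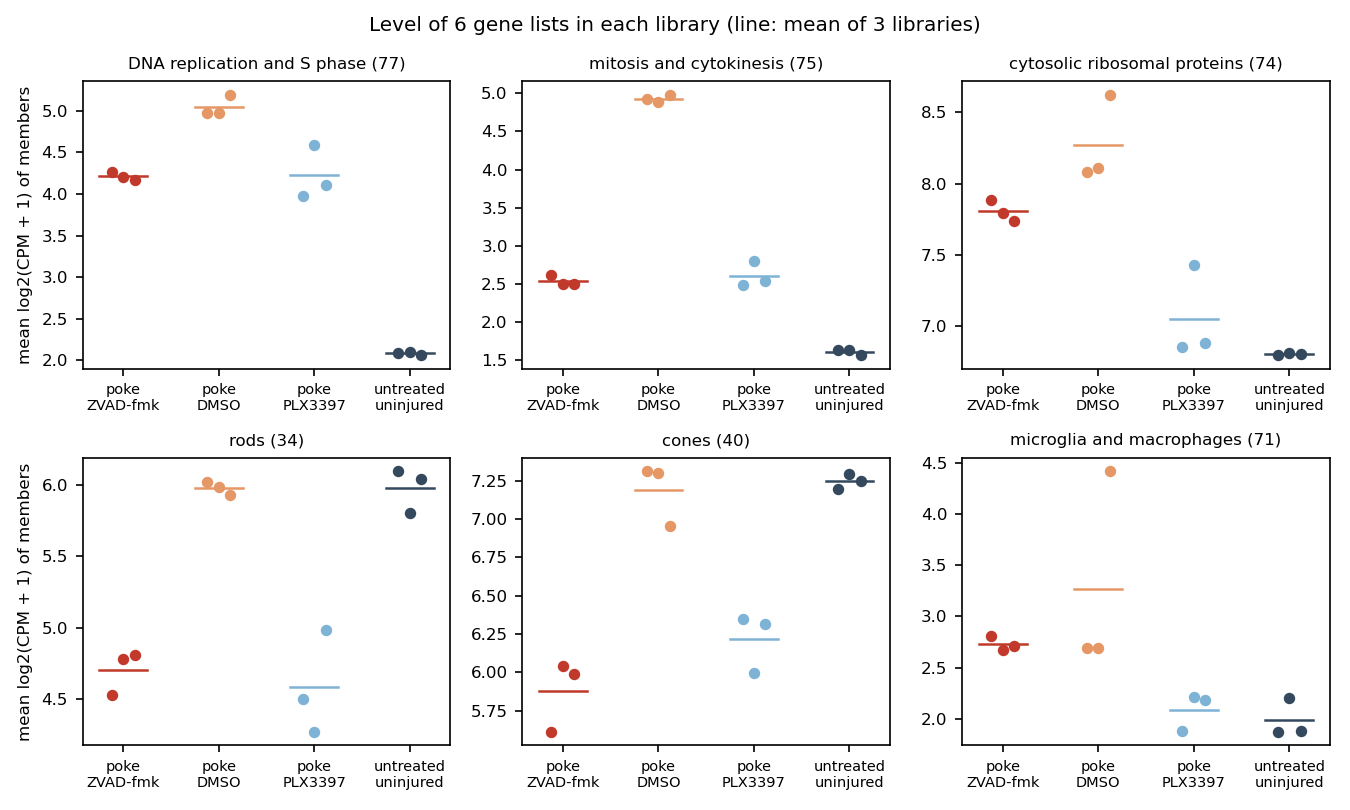
Mean log2(CPM + 1) over the tested members of 6 gene lists in each of the 12 libraries of the needle poke experiment, with the line at the mean of each group's 3 libraries; axes differ between panels and do not start at 0. For mitosis the ZVAD-fmk libraries lie at 2.50 to 2.61, the DMSO libraries at 4.89 to 4.99, the PLX3397 libraries at 2.48 to 2.80 and the uninjured libraries at 1.56 to 1.63, while for rods the ZVAD-fmk libraries lie at 4.52 to 4.81 and the uninjured libraries at 5.80 to 6.09.

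Genes that govern entry into the cell cycle were higher more often than genes in general, with 21 of 35 called higher, 6 lower and a median of 0.77. MYBL2, a transcription factor of cell cycle genes, had 10.9, 10.7 and 10.8 CPM in ZVAD-fmk retinas and 0.895, 0.182 and 0.706 CPM in uninjured retinas (log2 fold change 4.25, edgeR adjusted p = 5.6e-06). The S phase activator E2F1 rose by 4.17 on low counts. Cyclin D1 (CCND1), named after its values were seen, averaged 261 ± 8.70 CPM in ZVAD-fmk retinas, 266 ± 26.7 CPM in DMSO retinas and 33.1 ± 6.25 CPM in uninjured retinas (SD, n = 3 each). Both copies of the cyclin-dependent kinase inhibitor gene CDKN1B fell: CDKN1B (ENSDARG00000054271) had 77.4, 72.2 and 68.0 CPM in ZVAD-fmk retinas and 208, 206 and 214 CPM in uninjured retinas (log2 fold change -1.53, edgeR adjusted p = 8.1e-07), and CDKN1B (ENSDARG00000029018) fell by 0.98. For cdkn1a, which encodes another inhibitor of this kind, the groups overlapped. The log2 fold change of cdkn1a was -0.37 (edgeR adjusted p = 0.2), and it was called lower only without uninjured library 2 (-0.58, adjusted p = 0.027) or without the 4 libraries of the experiment that stood apart.

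Notch pathway genes moved in both directions and neurogenic factors were called lower more often than higher. Of 34 tested Notch genes, 7 were called higher and 7 lower, shares of 20.6% each, close to those of all genes, and without the 4 libraries that stood apart 12 were called higher and 11 lower. The ligand dlc had 69.7, 73.0 and 65.3 CPM in ZVAD-fmk retinas, against 6.24, 5.46 and 4.45 CPM in uninjured retinas (log2 fold change 3.69, edgeR adjusted p = 3.4e-07), and the receptor NOTCH1 (ENSDARG00000052094) rose by 1.97. The target genes HEY2 and her8a fell by 3.16 and 2.56. Of 41 proneural and neurogenic genes, 5 were called higher and 16 lower, with a median of -0.74. Besides ascl1a, the largest rise was in FOXN4, a factor for amacrine and horizontal cell fates, with 6.81 ± 0.350 CPM in ZVAD-fmk retinas, 42.1 ± 4.35 CPM in DMSO retinas and 3.04 ± 0.526 CPM in uninjured retinas (SD, n = 3 each). Compared with DMSO retinas directly, FOXN4 was lower by 2.63 (edgeR adjusted p = 6.8e-07), and 16 of the 41 genes were called lower and none higher. Of 2 INSM1 genes, which encode a repressor of progenitor states, INSM1 (ENSDARG00000091756) had 8.40, 10.5 and 9.25 CPM in ZVAD-fmk retinas and 15.6, 19.9 and 15.8 CPM in uninjured retinas (log2 fold change -0.87, edgeR adjusted p = 0.011), a call lost without ZVAD-fmk library 1 (adjusted p = 0.052). It was lower than in DMSO retinas by 1.63 (edgeR adjusted p = 0.00067). INSM1 (ENSDARG00000053301) did not pass either test. The retinal homeobox gene rx2 and NEUROD6 (ENSDARG00000040008) showed the largest falls, of 1.94 and 1.90.

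In the caspase list, 4 of 18 tested genes were called higher in the fit of all libraries, close to the share of all genes. None was called lower, and the median was 0.53. The list also holds card14, cflara and cflarb, which do not encode active caspases. The 3 called members described here were at low levels. The death receptor caspase casp10 had 1.74, 1.71 and 2.05 CPM in ZVAD-fmk retinas and 0.488, 0.200 and 0.0814 CPM in uninjured retinas (log2 fold change 2.84, edgeR adjusted p = 0.0011), casp23 had 0.876, 0.639 and 0.602 CPM in ZVAD-fmk retinas and 0.217, 0.0363 and 0 CPM in uninjured retinas (log2 fold change 3.08, edgeR adjusted p = 0.0096), and casp22, with no count in uninjured retinas, was at least 18.3-fold higher. Caspases not called included CASP2, with 20.2 ± 0.666 CPM in ZVAD-fmk retinas and 17.4 ± 0.922 CPM in uninjured retinas, casp8, with 14.8 ± 1.62 CPM in ZVAD-fmk retinas and 10.8 ± 3.99 CPM in uninjured retinas, and CASP9, the initiator of the mitochondrial route, with 8.29 ± 1.79 CPM in ZVAD-fmk retinas and 10.9 ± 1.21 CPM in uninjured retinas (SD, n = 3 each). For CASP6, caspa, casp20, casp21, caspb, caspbl, cflara, cflarb and card14 no difference passed the test, although DESeq2 called CASP6 higher (adjusted p = 0.03) and card14 lower (adjusted p = 0.013). Uninjured library 2 bears on these calls: casp8 had 15.3 CPM in it, against 7.68 and 9.31 CPM in the others. Without that library 7 genes of the list were called higher, CASP6 and caspa among those added, and 1 was called lower, card14. Without the 4 libraries that stood apart, 9 of the list were called higher and CASP9 lower (log2 fold change -0.61, edgeR adjusted p = 0.017). Only casp20 was called against DMSO retinas, lower by 2.32 (edgeR adjusted p = 0.035), and that call was lost without any 1 of the 6 poked libraries (adjusted p 0.051 to 0.14).

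**Figure D4:**
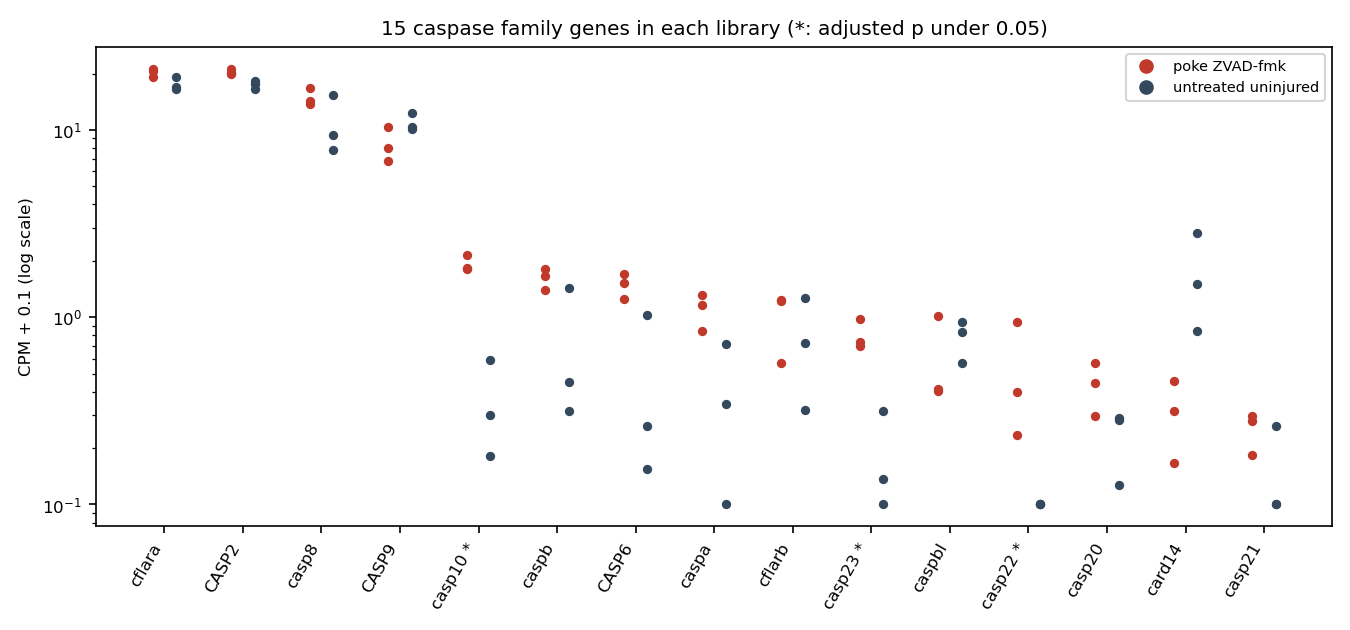
CPM + 0.1, on a log scale, of 15 genes of the caspase list in each poked ZVAD-fmk library (left point of each pair) and each untreated uninjured library (right point). Genes are ordered by their mean in ZVAD-fmk retinas, and an asterisk marks the 3 genes called at an edgeR adjusted p under 0.05. The casp10 points, at 1.71 to 2.05 CPM in ZVAD-fmk retinas, lie above all uninjured values of that gene, while many of the other pairs overlap.

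Other death pathway genes gave shares near those of all genes in the fit of all libraries. Of 44 tested genes of the mitochondrial and receptor routes of apoptosis, 12 were called higher and 10 lower, with a median of 0.05. The death receptors TNFRSF21, with 212, 184 and 196 CPM in ZVAD-fmk retinas and 53.5, 67.2 and 53.1 CPM in uninjured retinas, and fas rose by 1.77 and 1.72 on the log2 scale. The mitochondrial effector gene BOK fell in both copies: BOK (ENSDARG00000052129) had 119, 116 and 112 CPM in ZVAD-fmk retinas and 442, 860 and 524 CPM in uninjured retinas (log2 fold change -2.39, edgeR adjusted p = 4.9e-06), and BOK (ENSDARG00000008807) fell by 1.52. Genes of necroptosis and pyroptosis, routes of lytic death, had 8 of 29 members called higher and 4 lower, with a median of 0.45. Without the 4 libraries that stood apart 15 of them were called higher, a larger share than the 5674 of all genes called higher in that fit. The inflammasome sensor nlrp1 had 2.64, 3.01 and 1.95 CPM in ZVAD-fmk retinas and 0.787, 0.817 and 0.841 CPM in uninjured retinas (log2 fold change 1.63, edgeR adjusted p = 0.00085). NLRC3 rose by 3.23, although the call was lost without uninjured library 1 (adjusted p = 0.06). NINJ2, of the ninjurin family, fell by 2.81, and ticam1, the adaptor that links Toll-like receptor signalling to necroptosis kinases in mammals, fell by 1.40. Against DMSO retinas 3 of the 29 were called higher and none lower. Autophagy and lysosome genes were called higher in 20 of 84 and lower in 21, with a median of 0.12; 13 were called higher without uninjured library 3 and 32 without the 4 libraries that stood apart. The lysosomal membrane gene CD63, named after its values were seen, had 455, 425 and 422 CPM in ZVAD-fmk retinas and 52.8, 74.2 and 52.8 CPM in uninjured retinas (log2 fold change 2.85, edgeR adjusted p = 6.1e-06).

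Genes of the resting Müller glia were more often lower than higher. Of 59 tested members, 23 were called lower and 15 higher, with a median of -0.44. Glutamine synthetase, which clears glutamate taken up by the glia, fell for 1 of its 2 genes: GLUL (ENSDARG00000099776) had 3269, 3432 and 3281 CPM in ZVAD-fmk retinas and 11959, 19389 and 13254 CPM in uninjured retinas (log2 fold change -2.16 ± 0.22, edgeR adjusted p = 6.1e-06). GLUL (ENSDARG00000100003) overlapped between the groups, with 868 ± 183 CPM in ZVAD-fmk retinas and 878 ± 167 CPM in uninjured retinas (SD, n = 3 each). The retinoid carrier rlbp1a, which serves pigment recycling, had 1239, 1147 and 1130 CPM in ZVAD-fmk retinas and 3422, 5363 and 3717 CPM in uninjured retinas (log2 fold change -1.83 ± 0.18, edgeR adjusted p = 5e-06). The glutamate transporter genes SLC1A2 (ENSDARG00000102453) and SLC1A2 (ENSDARG00000052138) fell by 1.03 and 1.12. S100B fell most, by 3.39, on 104 counts in ZVAD-fmk libraries and 861 in uninjured libraries. The intermediate filament gene GFAP, which reactive glia raise, went the other way: it had 836, 709 and 702 CPM in ZVAD-fmk retinas, against 329, 521 and 357 CPM in uninjured retinas (log2 fold change 0.90, edgeR adjusted p = 0.0027). A second glutamate transporter, SLC1A3 (ENSDARG00000043148), had 8.55, 9.23 and 9.31 CPM in ZVAD-fmk retinas and 0.0271, 0 and 0.163 CPM in uninjured retinas, a log2 fold change of 7.27 (edgeR adjusted p = 2.6e-06), and was higher than in DMSO retinas by 1.95 (edgeR adjusted p = 0.0087). CAVIN1 (ENSDARG00000076411), with no count in uninjured retinas, was at least 13.3-fold higher. In the test against DMSO retinas the 2 SLC1A2 genes parted: SLC1A2 (ENSDARG00000052138) was lower by 1.03 (edgeR adjusted p = 0.0019), and the difference for SLC1A2 (ENSDARG00000102453) was 0.12 ± 0.20 (SE).

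Rod and cone genes were lower in ZVAD-fmk retinas than in uninjured retinas, and also lower than in poked DMSO retinas. Of 34 tested rod genes, 24 were called lower and none higher, with a median of -1.52, and of 40 cone genes, 33 were called lower and 1 higher, with a median of -1.54. The rod list includes recoverin (rcvrna), a calcium sensor of phototransduction, which had 5.21, 4.19 and 5.28 CPM in ZVAD-fmk retinas and 48.3, 25.7 and 45.9 CPM in uninjured retinas (log2 fold change -3.03 ± 0.34, edgeR adjusted p = 1.5e-05). The cone transducin GNAT2 had 449, 608 and 596 CPM in ZVAD-fmk retinas and 1577, 1616 and 1626 CPM in uninjured retinas (log2 fold change -1.54 ± 0.19, edgeR adjusted p = 3.8e-05). In both genes the groups did not overlap. The red cone opsin opn1lw2 fell much further, with 27.3, 37.9 and 33.5 CPM in ZVAD-fmk retinas and 714, 656 and 767 CPM in uninjured retinas (log2 fold change -4.44 ± 0.19, edgeR adjusted p = 1.5e-08). Another calcium sensor, GUCA1A (ENSDARG00000101567), fell by 3.80, which with rcvrna made the largest falls of the rod list, and the cone opsin kinase grk1b fell by 3.67. The single cone member called higher was the green cone opsin opn1mw3, with 48.4, 107 and 114 CPM in ZVAD-fmk retinas and 35.5, 64.8 and 40.7 CPM in uninjured retinas; the groups overlapped, and the call (edgeR adjusted p = 0.021) was lost without ZVAD-fmk library 2 or 3 or uninjured library 1 or 3 and with only the 6 libraries in the fit (adjusted p 0.051 to 0.094). Without the 4 libraries that stood apart, 25 rod and 33 cone genes were called lower.

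In poked DMSO retinas the same photoreceptor lists lay near the uninjured level, with median log2 fold changes of -0.02 for rods and -0.11 for cones. Recoverin (rcvrna) averaged 4.89 ± 0.610 CPM in ZVAD-fmk retinas, 34.7 ± 2.57 CPM in DMSO retinas and 40 ± 12.4 CPM in uninjured retinas (SD, n = 3 each), and its log2 difference from DMSO retinas was -2.83 ± 0.34 (edgeR adjusted p = 0.00013). The difference from DMSO retinas was -1.40 for GNAT2 (edgeR adjusted p = 0.00038) and -3.72 for opn1lw2 (edgeR adjusted p = 9.6e-08), whose DMSO mean was 434 ± 55.1 CPM. Over the lists, 25 of 34 rod genes and 33 of 40 cone genes were called lower than in DMSO retinas and none higher. PLX3397 retinas, which share the poke and an immersion, had medians over uninjured retinas of -1.57 for rods and -0.99 for cones. Genes of the pigment epithelium, the tissue next to the photoreceptors, were called higher in 6 of 23 (26.1%) and lower in 5 (21.7%). These shares are near the 21.9% and 18.6% of all genes. The summed level was 351 to 364 CPM in ZVAD-fmk retinas and 288 to 333 CPM in uninjured retinas. Much of it came from ranbp1 and trpm1b, named after their values were seen, with means of 105 and 70.4 CPM in ZVAD-fmk retinas. Neither is particular to this tissue, so the sum does not measure it. The part of the pigment epithelium in the photoreceptor fall was not tested. The retinol transporter gene STRA6 had 65.0, 58.2 and 60.6 CPM in ZVAD-fmk retinas and 2.41, 5.17 and 3.26 CPM in uninjured retinas (log2 fold change 4.07, edgeR adjusted p = 1.2e-05), and pmelb, which encodes a melanosome protein, rose by 2.2. The visual cycle gene RPE65 (ENSDARG00000007480) was lower, with 8.50, 7.09 and 7.95 CPM in ZVAD-fmk retinas and 18.6, 46.8 and 25.4 CPM in uninjured retinas (log2 fold change -1.95, edgeR adjusted p = 0.013), a call lost without uninjured library 2 (adjusted p = 0.074) or without the 4 libraries that stood apart (adjusted p = 0.21).

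Genes of inner retinal neurons were also called lower more often than genes in general, with smaller medians. Of 39 bipolar cell genes, 24 were called lower and none higher, with a median of -0.82. The bipolar calcium-binding protein cabp5b averaged 11.4 ± 0.0823 CPM in ZVAD-fmk retinas and 40.2 ± 4.91 CPM in uninjured retinas (SD, n = 3 each; log2 fold change -1.82, edgeR adjusted p = 0.00017), and LRIT3 (ENSDARG00000057054), a protein of the photoreceptor to bipolar synapse, fell by 2.35, a call lost without the 4 libraries that stood apart (adjusted p = 0.059). Amacrine cell genes were called lower in 11 of 34 and higher in none, with a median of -0.51, and 19 were called lower without the 4 libraries that stood apart. Their largest fall was in the neuropeptide gene NPY, at -2.22. Horizontal cell genes were called lower in 5 of 17 and higher in 1, with counts that ranged from 3, without any 1 ZVAD-fmk library, to 10, without the 4 libraries that stood apart or with only the 6 libraries in the fit. Of 37 ganglion cell genes, 18 were called lower and 4 higher, with a median of -0.79. The ganglion cell transcription factors ISL2 (ENSDARG00000053499), with 4.64, 5.62 and 3.83 CPM in ZVAD-fmk retinas and 39.3, 15.9 and 36.3 CPM in uninjured retinas, and EOMES (ENSDARG00000006640) fell by 2.7 and 2.86. The growth cone protein gap43, which regrowing optic axons express, had 77.3, 88.4 and 92.4 CPM in ZVAD-fmk retinas and 11.9, 5.34 and 12.6 CPM in uninjured retinas (log2 fold change 3.12, edgeR adjusted p = 2.3e-05). It was lower than in DMSO retinas by 1.55 (edgeR adjusted p = 0.0077), where it averaged 251 ± 15.0 CPM (SD, n = 3). The rise of thy1, by 1.39, was not called without ZVAD-fmk library 1, uninjured library 1 or uninjured library 3, or without the 4 libraries that stood apart (adjusted p 0.057 to 0.11). Synapse genes as a class were called lower in 22 of 79 and higher in 4, with 38 lower without the 4 libraries that stood apart.

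Microglia and macrophage genes were higher in part. Of 71 tested members, 26 were called higher and 5 lower, with a median of 1.14, and 44 were called higher without the 4 libraries that stood apart. The summed level of the list was 17448 to 17985 CPM in ZVAD-fmk retinas and 9957 to 15389 CPM in uninjured retinas. The markers csf1ra and MPEG1, given next, were at 14.3 CPM or less in these libraries. The sum was therefore set mainly by far more abundant members, and it does not measure microglia. The Csf1 receptor gene csf1ra had 12, 13.4 and 14.3 CPM in ZVAD-fmk retinas and 4.34, 9.82 and 3.72 CPM in uninjured retinas (log2 fold change 1.14, edgeR adjusted p = 0.093), and was called higher without uninjured library 2 (1.73, adjusted p = 0.032). The macrophage marker MPEG1 (ENSDARG00000055290) had 8.58, 6.76 and 6.97 CPM in ZVAD-fmk retinas and 3.53, 6.53 and 4.21 CPM in uninjured retinas, a log2 fold change of 0.64 (edgeR adjusted p = 0.4). The second gene, MPEG1 (ENSDARG00000043093), did not pass the test either, at 0.968 ± 0.192 CPM in ZVAD-fmk retinas and 0.208 ± 0.234 CPM in uninjured retinas. In DMSO retinas these markers were uneven: MPEG1 (ENSDARG00000055290) was at 10.1, 9.99 and 57.1 CPM in them, and its call against DMSO retinas (log2 difference -1.79, edgeR adjusted p = 0.042) was lost without DMSO library 3 (-0.43, adjusted p = 0.4) or any ZVAD-fmk library (adjusted p 0.1 to 0.14). Over the list, 15 of 71 genes were called lower than in DMSO retinas and 2 higher, with a median log2 difference of -1.08. Of all genes, 8.96% were called lower and 9.70% higher in that test. Over uninjured retinas the median of the list was 2.29 in DMSO retinas. The mean log2(CPM + 1) of the list ranged from 2.69 to 4.42 between DMSO libraries. The complement subunit c1qa and the chemokine ccl34b.8, with no count in uninjured retinas, were at least 41.9-fold and 36.4-fold higher. The largest falls were in another chemokine of that cluster, ccl34b.1, at -3.37, and in cd74a, the invariant chain of antigen presentation, with 3.75, 2.49 and 2.18 CPM in ZVAD-fmk retinas and 18.8, 38.1 and 21.0 CPM in uninjured retinas (log2 fold change -3.21, edgeR adjusted p = 0.00098). The cytokine il34, a ligand of the Csf1 receptor that neurons make in mammals, was chosen after its values were seen: it had 63.0, 55.9 and 58.4 CPM in ZVAD-fmk retinas and 3.91, 2.12 and 2.74 CPM in uninjured retinas (log2 fold change 4.35 ± 0.23, edgeR adjusted p = 4.5e-08), and was higher than in DMSO retinas by 1.90 (edgeR adjusted p = 4.5e-05), where it averaged 15.8 ± 1.01 CPM (SD, n = 3). Poked PLX3397 retinas had a similar il34 level to ZVAD-fmk retinas, 59.0 ± 14.3 CPM.

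Complement genes gave one of the larger list medians. Of 25 tested members, 15 were called higher and 2 lower, with a median of 2.87, against 2.73 in DMSO retinas over the same uninjured libraries. The terminal pathway component c7b, singled out after its values were seen, had 9722, 8264 and 8252 CPM in ZVAD-fmk retinas and 18.8, 24.3 and 21.6 CPM in uninjured retinas (log2 fold change 8.66 ± 0.36, edgeR adjusted p = 1.3e-08). It was higher than in DMSO retinas by 1.89 (edgeR adjusted p = 0.00046), where it averaged 2363 ± 491 CPM (SD, n = 3). Its PLX3397 mean was 5865 ± 2422 CPM. The classical pathway gene c4b, also picked afterwards, had 539, 502 and 512 CPM in ZVAD-fmk retinas and 2.17, 3.21 and 1.90 CPM in uninjured retinas (log2 fold change 7.72, edgeR adjusted p = 2.9e-09). No uninjured library held a count of cfh, at least 72.0-fold higher, or c4, at least 60.5-fold higher. The membrane inhibitor cd59a and the lectin pathway protease MASP1 fell by 3.06 and 1.67. Neutrophil genes were called higher in 10 of 19 and lower in none, with a median of 3.49, which becomes 2.78 when members without counts in 1 group are put at their lower bound; MMP9 and mmp13a led them, mmp13a at least 65.6-fold higher, and both are also made by other cells. The neutrophil marker npsn had 2.60, 1.75 and 1.68 CPM in ZVAD-fmk retinas and 0.814, 0.708 and 1.19 CPM in uninjured retinas and did not pass the test. It was 1 of 9 members not called. Named after their values were seen, cxcr1 and lyz were called higher, by 4.45 and 3.49 (edgeR adjusted p = 0.0046 and 0.016). Their levels were low, with means of 1.14 and 0.690 CPM in ZVAD-fmk retinas. Inflammatory cytokine and prostaglandin genes were called higher in 19 of 54 and lower in 7, with a median of 1.15. The neutrophil attractant cxcl8a, at 2.07, 1.92 and 1.84 CPM in ZVAD-fmk retinas, had no count in uninjured retinas and was at least 83.3-fold higher, and ALOX5 (ENSDARG00000043085), a leukotriene synthase, was at least 37.3-fold higher. TGFB3 had 201, 196 and 190 CPM in ZVAD-fmk retinas and 547, 1039 and 642 CPM in uninjured retinas (log2 fold change -1.93, edgeR adjusted p = 1.1e-05), and the prostaglandin synthase ptgs1 fell by 1.62. Interferon response and antigen presentation genes were called higher in 18 of 44 and lower in 3, with a median of 0.85. No gene of the lymphocyte list of 15 tested was called higher and 3 were called lower, a share near the 18.6% of all genes. Named after their values were seen, these were DUSP2, RAG1 and EOMES (ENSDARG00000006640), also named above as a ganglion cell factor. DUSP2 averaged 374 CPM in ZVAD-fmk retinas and 1094 CPM in uninjured retinas, while the T cell marker lck was near 0 in both. The count therefore does not measure lymphocytes. Other T cell genes, named after their values were seen, were above 0. In uninjured retinas cd8b and ZAP70 averaged 1.08 and 1.83 CPM, and in ZVAD-fmk retinas 0.0814 and 0.899 CPM. Another member, il2rga, went the other way, at 0.260 CPM in uninjured retinas and 0.628 CPM in ZVAD-fmk retinas. None of these genes passed the test.

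Genes for making and degrading protein rose broadly and by small amounts. Of 74 cytosolic ribosomal protein genes, 72 were called higher and 1 lower, with a median of 1.03. RPL21 had 374, 353 and 340 CPM in ZVAD-fmk retinas and 136, 130 and 131 CPM in uninjured retinas (log2 fold change 1.43, edgeR adjusted p = 2.4e-05). Direct comparison with DMSO retinas gave 16 ribosomal genes called lower and none higher, with a median of -0.50. Proteasome genes were called higher in 42 of 48 and lower in none, with a median of 0.92 in ZVAD-fmk retinas and 0.96 in DMSO retinas over uninjured retinas, and 2 of the 48 were called between the poked groups. The regulatory subunits PSMD10, with 20.5, 18.6 and 23.2 CPM in ZVAD-fmk retinas and 4.48, 7.68 and 7.84 CPM in uninjured retinas, and PSMD2 (ENSDARG00000103190) rose by 1.64 and 1.49. Of 61 unfolded protein and heat shock genes, 24 were called higher and 13 lower. The endoplasmic reticulum chaperone HYOU1 had 145, 118 and 126 CPM in ZVAD-fmk retinas and 25.0, 29.9 and 26.8 CPM in uninjured retinas (log2 fold change 2.25, edgeR adjusted p = 1.2e-06), and its neighbour in that compartment CRELD2 rose by 1.96. The cytosolic chaperone genes HSPA8 (ENSDARG00000037403) and hspa1b fell by 3.13 and 2.07. In these ZVAD-fmk library 1 stood above its partners: hspa1b was at 128, 47.0 and 48.6 CPM in ZVAD-fmk retinas and 393, 203 and 341 CPM in uninjured retinas. For HSP90AA1, picked after its values were seen, at 4804, 1338 and 1431 CPM in ZVAD-fmk retinas and 7100, 5162 and 6390 CPM in uninjured retinas, the call (log2 fold change -1.30, edgeR adjusted p = 0.026) was lost without ZVAD-fmk library 2 or 3 and without uninjured library 1 or 3 (adjusted p 0.062 to 0.11), and with only the 6 libraries in the fit (adjusted p = 0.052).

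Sterol synthesis genes were lower in ZVAD-fmk retinas along most of the pathway. Of the 47 tested genes of the cholesterol list, 28 were called lower and 6 higher, with a median of -0.93, and of 19 genes for 18 enzymes of the pathway, 17 were called lower, none higher and 2 were not called. Synthesis starts from acetyl-CoA and HMGCS1, named after its values were seen, had 35.7, 25.6 and 25.8 CPM in ZVAD-fmk retinas and 211, 499 and 247 CPM in uninjured retinas (log2 fold change -3.46 ± 0.34, edgeR adjusted p = 5.3e-06). Squalene epoxidase, SQLE (ENSDARG00000079946), had 9.41, 4.74 and 3.47 CPM in ZVAD-fmk retinas and 82.9, 175 and 91.1 CPM in uninjured retinas (log2 fold change -4.31 ± 0.39, edgeR adjusted p = 2.8e-06). The next enzyme, LSS, had 3.21, 2.56 and 2.82 CPM in ZVAD-fmk retinas and 33.8, 60.7 and 35.5 CPM in uninjured retinas (log2 fold change -3.92, edgeR adjusted p = 3.6e-07). Uninjured library 2 was the highest in each of the 3 genes, and the groups were far apart without it as well: the list gave 26 to 31 genes called lower without any 1 of the 6 libraries or without the 4 that stood apart. The regulator of the pathway, srebf2, fell by 1.31, also named afterwards. The largest rises of the list were CH25H, which makes 25-hydroxycholesterol, at 2.24, and the cholesterol exporter abca1b, at 2.03, whose call was lost without any 1 of the 3 ZVAD-fmk libraries or uninjured library 1 or 2 (adjusted p 0.054 to 0.1). In DMSO retinas the list's median over uninjured retinas was -1.09, and SQLE (ENSDARG00000079946) averaged 9.40 ± 0.722 CPM (SD, n = 3); between the poked groups 6 genes were called lower and 8 higher in ZVAD-fmk retinas, srebf2 among the higher ones at 0.82 (edgeR adjusted p = 0.0098).

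**Figure D5:**
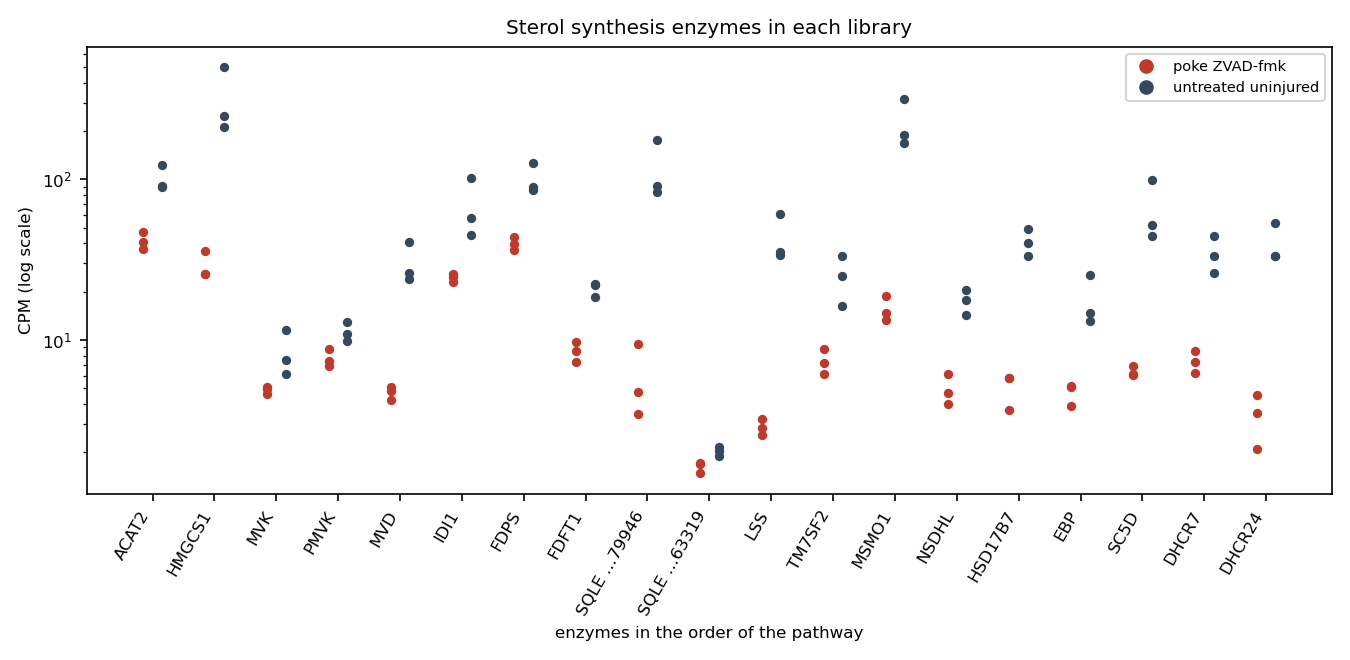
CPM, on a log scale, of 19 genes for 18 sterol synthesis enzymes in each poked ZVAD-fmk library (left point of each pair) and each untreated uninjured library (right point), in the order in which the enzymes act. In each of the 17 genes called lower, all ZVAD-fmk points lie below all uninjured points; PMVK and SQLE (ENSDARG00000063319) were not called.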

How the data were processed

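The deposited table holds expected counts per gene, which the authors made with tools that the submitters' processing notes list as RSEM 1.3.3, STAR 2.7.8a, cutadapt 4.8 and FastQC 0.11.8 on the build GRCz11; their order, the annotation and strand handling are not given in the sources used here. Reads of paralogs, overlapping or antisense genes may therefore be shared. Of 21 columns, 12 matched the labels of the needle poke experiment by name and 9 matched none and were not used. Counts were used as deposited, 4 reporter transgenes were left out, and genes were kept with filterByExpr (21334 of 25975 with counts). In R 4.3.3, edgeR 4.0.16 (TMM, quasi-likelihood F test) was fitted on all 12 libraries with 4 groups, since they share 1 estimate of the spread, and contrasts were adjusted by Benjamini-Hochberg; a call is an adjusted p under 0.05. DESeq2 1.42.0, other scaling, no filter, a replicate block, the 6 libraries alone and leaving out libraries were alternatives. No 2 libraries of a group were copies (chi-square per degree of freedom 7.56 to 130). The procedure was also run on simulated counts in which far fewer genes differed between the groups than were called here. False calls under changes as wide as those in these libraries were not tested, so the simulation does not bear on the counts above. The 42 gene lists (1794 genes; 1710 of 1810 symbols matched, many through human-style names that cover several zebrafish copies) and the members were chosen with earlier results of these data known. Named genes were the 10 largest rises and falls called also without each library, with at least 5 CPM, the 2 largest called rises and falls of a list, and a fixed set of glial, photoreceptor, cell cycle, microglial and caspase genes; others are marked as chosen after their values were seen. A fold against a group without counts is a lower bound from 3 counts over that group. Promoter motifs were not searched. Results for several genes of the lists are not reported here.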

Additional observations from a re-analysis of the deposited data

How the results depend on the processing

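The counts of genes called in ZVAD-fmk over uninjured retinas stayed within 1.5 times the main counts under every alternative run: 4544 higher and 4163 lower with DESeq2's size factors in edgeR, 4940 and 4591 with DESeq2, 4583 and 3743 without the filter on low counts, 4825 and 4536 with only the 6 libraries, 5674 and 4796 without the 4 libraries that stood apart (ZVAD-fmk 1, DMSO 3, PLX3397 2 and uninjured 2), and 3960 to 4796 higher and 2994 to 3822 lower without single libraries. Same-numbered libraries of the 2 groups did not deviate together (r = -0.033, -0.055 and 0.028 across genes), so the numbers were not taken to pair them; with the replicate as a block, 4625 genes were called higher and 3743 lower, and of the genes named here si:ch211-216b21.1 and pou5f3 were no longer called and CASP6 was. Without the 4 libraries, 75 replication, 60 mitosis, 15 complement and 72 ribosomal protein genes were called higher and 27 Müller glia and 31 cholesterol list genes lower. The signs that turned were of values that did not pass the test in the fit of all libraries. In ZVAD-fmk over uninjured retinas these were GLUL (ENSDARG00000100003), with log2 fold changes of -0.20 to 0.16 without single libraries, and cflarb, with -0.15 without the 4 libraries. Against DMSO retinas they were ascl1a (-0.14 to 0.18), MCM2 (-0.050 to 0.13), MCM3 (-0.16 to 0.062) and MCM4 (-0.019 to 0.20) without single libraries. The cause was not tested. Depth limits genes at a few counts, such as casp21.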

Other observations

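Glycolysis and clock genes were called lower in larger shares than the 18.6% of all genes. For oxidative phosphorylation that depended on which libraries were used. Of 51 glycolysis and lactate genes, 24 (47.1%) were called lower and 7 (13.7%) higher in ZVAD-fmk retinas over uninjured retinas. Their median log2 fold change was -0.51, and 13 were called higher without the 4 libraries that stood apart. The glucose transporter SLC2A1 (ENSDARG00000001437) had 312, 339 and 321 CPM in ZVAD-fmk retinas and 1405, 2302 and 1553 CPM in uninjured retinas (log2 fold change -2.44, edgeR adjusted p = 6.4e-07). Hexokinase HK2, which takes the first step of glycolysis, moved against the list, with 62.1, 53.7 and 54.8 CPM in ZVAD-fmk retinas and 2.69, 4.32 and 3.88 CPM in uninjured retinas (log2 fold change 3.96, edgeR adjusted p = 9.2e-07). Of 52 oxidative phosphorylation genes, 14 (26.9%) were called lower and 1 (1.92%) higher. Without any 1 ZVAD-fmk library or uninjured library 3, 8 or 9 were called lower. Those fits called 2994 to 3284 of all genes lower, so the share of this list was near that of all genes in them. Without the 4 libraries that stood apart 22 were called lower, in a fit that called 4796 of all genes lower. Of 40 circadian clock genes, 19 (47.5%) were called lower and 7 (17.5%) higher, with a median of -0.46. The clock repressor NR1D1 had 178, 194 and 193 CPM in ZVAD-fmk retinas and 455, 847 and 510 CPM in uninjured retinas (log2 fold change -1.68, edgeR adjusted p = 2.6e-05), while its relative nr1d4a rose by 1.98 and the activator bmal2 by 1.89. The labels give no time of day for the dissections.

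Matrix genes were called higher more often than genes in general, and vessel genes about as often. Both were called lower in smaller shares than the 18.6% of all genes. Of 83 matrix, protease and annexin genes, 27 (32.5%) were called higher and 13 (15.7%) lower. The largest falls were of the proteoglycan LUM, at -3.66, and the metalloproteinase mmp23bb, at -2.76. Of 40 endothelial and mural cell genes, 9 (22.5%) were called higher, against 21.9% of all genes, and 5 (12.5%) lower. In this list, 16 were called higher without the 4 libraries that stood apart, and 3 lower without uninjured library 2. The smooth muscle gene TAGLN (ENSDARG00000045408) had 21.7, 25.5 and 23.4 CPM in ZVAD-fmk retinas and 0.868, 0.835 and 0.299 CPM in uninjured retinas (log2 fold change 5.12, edgeR adjusted p = 2.3e-06), and the pericyte gene rgs5b rose by 3.44. The Notch ligand dll4 and the monocarboxylate transporter SLC16A1 (ENSDARG00000016963) fell by 1.61 and 2.31.

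Lists of neighbouring tissues and the remaining classes are given by their counts. Of all genes, 21.9% were called higher and 18.6% lower. Oligodendrocyte and optic nerve genes were called lower in 8 of 16 and higher in 1, lens crystallins lower in 2 of 10 and higher in 1, erythrocyte genes lower in 2 of 15 and higher in 2, and surface epithelium genes higher in 3 of 14 and lower in none. Axon growth genes were called higher in 14 of 38 (36.8%) and lower in 11 (28.9%). Without ZVAD-fmk library 2 or 3 or uninjured library 1 or 3, 6 or 7 were called lower, in fits that called 2994 to 3383 of all genes lower. Without the 4 libraries that stood apart 17 were called lower, in a fit that called 4796 of all genes lower. Of 57 xenobiotic and oxidative stress genes, 14 (24.6%) were called higher and 18 (31.6%) lower.

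The table also counts an EGFP reporter whose promoter the labels do not give. It was at 436, 431 and 432 CPM in ZVAD-fmk retinas and 828, 1149 and 940 CPM in uninjured retinas.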
